A study of Mus musculus with 9 samples.

Results

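The genes examined here encode the cargo of the insulin and glucagon secretory granule and the proteins that dock, prime and fuse it. They are 34 named mouse genes, taken by symbol from a table of raw counts with 56941 gene identifiers. All 34 had 1 identifier each, and all 34 passed the filter on low counts that left 18548 genes to test. The lowest count of any of them in any library was 37, for Doc2b, and the highest was 156543, for Chga.

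RNA was sequenced from pancreatic islets of wild-type male C57BL/6J mice that were placed on a diet at 15 weeks of age and kept on it for 9 months. Fat made up 10% of the low fat control diet (LFD, 3 libraries), and the high fat diet (HFD, 2 libraries) held 60% fat and the ketogenic diet (KD, 4 libraries) 89.9% fat. The comparison of KD with LFD addressed how a ketogenic diet changes transcripts in islets. Whether a library came from 1 mouse or from pooled mice is not stated in the labels, so the p-values measure the spread between these libraries.

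Islet endocrine cells store hormone in dense-core granules. Granins such as chromogranins and secretogranins condense with the hormone and help the granule to form, and a zinc transporter in the granule membrane loads the zinc that insulin crystals hold. Rab GTPases and their effectors bring the granule to the plasma membrane, priming factors make it ready, and calcium entry, sensed by synaptotagmins, triggers fusion by SNARE proteins. After fusion the ATPase NSF and its adaptor alpha-SNAP take the SNARE complexes apart so that they can be used again. The granin promoters are textbook examples of promoters with a cyclic AMP response element, to which CREB family factors bind.

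The promoter stretches of the 3 granin genes that hold this element or a variant of it, and of the 2 Rab3 genes called between diets, are shown to place these genes. They are the 250 bases upstream of the start that RefSeq lists in build GRCm38.p6, printed 5′ to 3′ on the gene's strand. Chga is at chr12:102554691-102554940 on the plus strand, Chgb at chr2:132781392-132781641 on the plus strand and Scg2 at chr1:79440027-79440276 on the minus strand. Rab3a is at chr8:70754453-70754702 on the plus strand, where the first of 2 listed starts is used, and Rab3b at chr4:108878820-108879069 on the plus strand. Capitals mark the full element TGACGTCA, its variant TGACGTAA in Chga, or its core TGACG, which reads CGTCA on the other strand in Rab3a.
Chga: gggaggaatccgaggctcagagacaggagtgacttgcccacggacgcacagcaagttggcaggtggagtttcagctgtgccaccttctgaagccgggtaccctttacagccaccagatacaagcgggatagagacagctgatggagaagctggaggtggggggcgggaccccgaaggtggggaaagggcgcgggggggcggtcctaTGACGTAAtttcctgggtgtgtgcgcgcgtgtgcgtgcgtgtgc
Chgb: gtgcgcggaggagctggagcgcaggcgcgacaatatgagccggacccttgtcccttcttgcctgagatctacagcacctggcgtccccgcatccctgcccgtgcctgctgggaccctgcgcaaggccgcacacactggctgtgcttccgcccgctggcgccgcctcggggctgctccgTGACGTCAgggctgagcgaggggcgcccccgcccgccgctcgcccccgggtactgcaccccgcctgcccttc
Scg2: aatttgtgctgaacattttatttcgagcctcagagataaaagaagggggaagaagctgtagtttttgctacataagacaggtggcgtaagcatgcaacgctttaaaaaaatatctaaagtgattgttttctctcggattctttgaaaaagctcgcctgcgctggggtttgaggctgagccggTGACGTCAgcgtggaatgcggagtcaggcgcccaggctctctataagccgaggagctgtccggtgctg
Rab3a: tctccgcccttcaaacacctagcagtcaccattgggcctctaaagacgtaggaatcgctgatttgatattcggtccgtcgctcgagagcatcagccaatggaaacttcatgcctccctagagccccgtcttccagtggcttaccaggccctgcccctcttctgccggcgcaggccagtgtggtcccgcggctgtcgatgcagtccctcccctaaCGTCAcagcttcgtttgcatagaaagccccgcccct
Rab3b: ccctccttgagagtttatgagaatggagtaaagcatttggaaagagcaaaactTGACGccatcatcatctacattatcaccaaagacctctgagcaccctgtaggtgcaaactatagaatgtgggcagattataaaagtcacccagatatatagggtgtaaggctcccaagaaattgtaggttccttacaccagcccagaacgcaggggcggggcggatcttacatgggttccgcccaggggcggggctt
The first capital letter stood 44 bases before the start in Chga, 72 in Chgb, 68 in Scg2, 36 in Rab3a and 197 in Rab3b. The RefSeq table held a promoter for 22 of the 34 genes. On either strand, TGACGTCA occurred in 1.55% of all 32851 promoters of the same length, and among these genes in Chgb and Scg2. The variant TGACGTAA occurred in 0.447% of promoters and in Chga. The core TGACG, which both longer motifs contain, occurred in 17.8% of promoters and in 11 of the 22 genes. These matches describe letters in a window and no binding was measured.

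The preparations differed in the cells they held, and these differences accompany every comparison below. Library totals ran from 15513502 to 26588390 counts. Acinar markers, 27 genes of the digestive-enzyme cells around the islets, took 38.3%, 26.8% and 16.2% of counts in the LFD libraries, 19.8% and 11.9% in HFD, and 64.2%, 47.4%, 59.7% and 21.5% in KD replicates 1 to 4. KD replicate 4 thus stood apart from the other KD libraries. Levels are given as CPM, counts normalised to library size, with sizes scaled by TMM, which assumes that most genes do not change. On that scale 10 beta cell markers summed to 54295 to 75435 CPM in LFD, 77212 and 105174 in HFD and 31002 to 110035 in KD, so the labelled tissue was present in every library. The 8 alpha cell markers summed to 7704 to 10983 CPM in LFD, 6016 and 9463 in HFD and 7641 to 17177 in KD. The 12 B and T lymphocyte markers summed to 513, 1231 and 66.7 CPM in LFD, 56.5 and 73.3 in HFD and 6.06 to 26.1 in KD, and 10 of the 12 were at 0 in at least 1 library. In bulk RNA, fewer cells of a type and less RNA per cell cannot be told apart. The labels give no preparation date or batch, so a batch effect and a diet effect cannot be told apart.

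The 34 genes together took 0.845%, 1.21% and 1.57% of counts in the LFD libraries, 1.69% and 1.99% in HFD, and 0.420%, 1.04%, 0.609% and 2.19% in KD. That order ran opposite to the acinar share within each diet. Chga and Scg2 supplied most of it: the pair held between 57.7% and 67.6% of the members' counts in every library. Per kilobase of exon, which allows levels to be compared between genes, Scg2 and Chga led with means over the diets of 1471 and 1380 CPM per kilobase. Slc30a8 followed at 298, Scg3 at 223 and Syt13 at 137, while Doc2b was lowest at 0.769. Scg2 and Chga changed places between diets: Scg2 had 1232 and Chga 1109 CPM per kilobase on LFD, and on KD Scg2 had 1189 and Chga 1709.

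**Figure D1:**
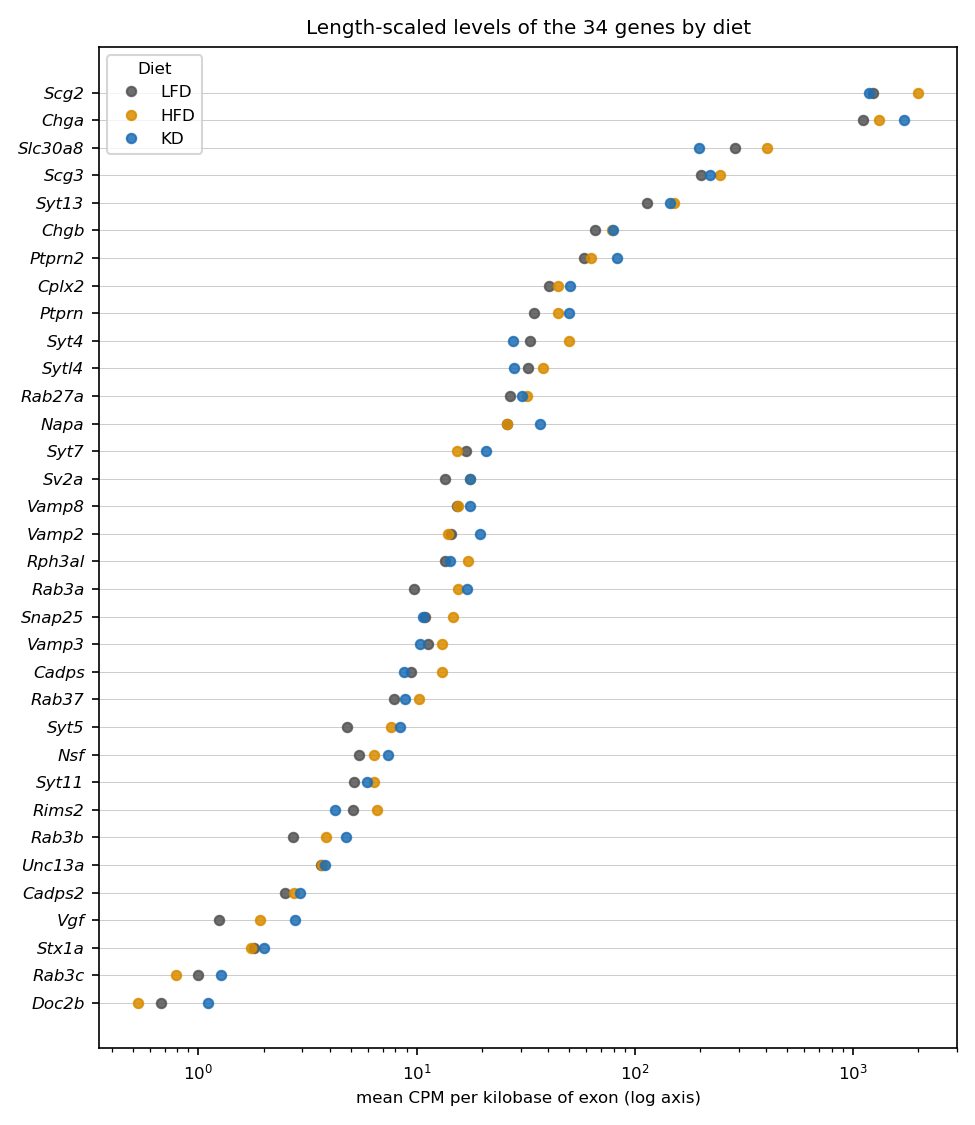
Mean CPM per kilobase of exon (log axis) for each of the 34 genes, with 1 point per diet and genes ordered by their mean over the diets. Scg2 (mean 1471) and Chga (1380) lie above all others and Doc2b (0.769) lies lowest.

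On KD, 3 of the 34 genes were higher than on LFD past the threshold: the granule-tethering GTPases Rab3a and Rab3b and the SNARE-disassembling ATPase Nsf. None was lower past it. The test was edgeR's quasi-likelihood test with Benjamini-Hochberg adjustment over all genes and a threshold of 0.05. Over all 18548 genes, 4.12% were called in this comparison, 0.981% higher and 3.14% lower. At an unadjusted p below 0.05 there were 8 of the 34, all higher, where 22.7% of all genes were past it: the 3 above with Napa, Vgf, Vamp2, Ptprn2 and Syt5. The log2 fold change was above 0 for 26 of the 34, with a median of 0.25, where 48.1% of all genes were above 0 and their median was -0.02. It was above 0 for 13 of the 20 endocrine genes used for scaling below (median 0.09) and 5 of the 10 beta cell markers (0.03). It was above 0 for 6 of the 8 alpha cell markers (0.25), 3 of 6 delta and PP cell markers (0.01) and 25 of the 27 acinar markers (1.51). The KD and LFD libraries did not overlap for 7 of the 34, all higher on KD (Rab3a, Rab3b, Rab3c, Nsf, Napa, Vamp2 and Ptprn2), where 19.7% of all genes did not overlap, 9.69% higher and 10.1% lower.

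These 3 calls lay close to the threshold. DESeq2 called 6 of the 34 and limma-voom 7, with 9.56% and 10.1% of all genes called. Leaving out LFD replicate 3 gave 3 calls (5.08% of all genes called), and leaving out KD replicate 1 gave 2 (2.06%). There was 1 call without HFD replicate 1 (2.71%), without HFD replicate 2 (2.73%) and without KD replicate 4 (7.4%). There were 0 calls without LFD replicate 1 (0.97%), with 8 at an unadjusted p below 0.05, without LFD replicate 2 (1.24%, 7), with KD replicate 2 omitted (1.08%, 7) and with KD replicate 3 omitted (0.822%, 9). With an acinar score as a covariate it was 15 (7.55% of all genes called), all higher on KD. They were Rab3a, Rab3b, Nsf, Napa, Vgf, Vamp2, Ptprn2, Syt5, Chga, Chgb, Cplx2, Ptprn, Sv2a, Syt13 and Syt7. With a lymphocyte score as a covariate, added after the data had been seen, the count was 0 (0%), with 3 at an unadjusted p below 0.05. DESeq2 size factors (3.91%), TMM without acinar and hormone genes (4.6%) and no filter on low counts (3.42%) each gave 3. The fits with no filter and without LFD replicate 3 called Rab3a, Rab3b and Vgf, and not Nsf. A minimum of 5 CPM in 3 libraries (3.31%) and a fit of only these 2 diets (3.12%) gave 0, each with 8 at an unadjusted p below 0.05. The part of either cell type in these results was not tested beyond those fits.

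For HFD against LFD no member was called by edgeR, where 0% of all genes were called, and the smallest adjusted p among the 34 was 0.407. At an unadjusted p below 0.05 there were 2, Rab3a and Rab3b, where 9.99% of all genes were past it, and DESeq2 (1.44% of all genes called) and limma-voom (0.0539%) also called 0 of the 34. So did the fits with no filter on low counts (0.261%) and without LFD replicate 3 (1.06%), in which other genes were called. The log2 fold change was above 0 for 29 of the 34, with a median of 0.28, where 49.8% of all genes were above 0 and their median was 0.00. It was above 0 for 18 of the 20 endocrine genes used for scaling below (median 0.31) and 9 of the 10 beta cell markers (0.43). It was above 0 for 1 of the 8 alpha cell markers (-0.21), 1 of 6 delta and PP cell markers (-0.30) and 0 of the 27 acinar markers (-1.10). Without overlap, 8 members were higher on HFD (Rab3a, Nsf, Syt4, Syt5, Syt11, Vamp3, Scg2 and Ptprn) and 0 lower, where 27.5% of all genes did not overlap, 13.4% higher and 14.1% lower. That comparison and the one before it share the LFD libraries.

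For KD against HFD the members' values lay in both directions. By edgeR 0 of the 34 were called, where 0% of all genes were, with a smallest adjusted p of 0.124. Unadjusted, 9 had a p below 0.05, where 22.7% of all genes did: Rab3c, Napa, Vamp2 and Doc2b had higher values on KD, and Slc30a8, Syt4, Cadps, Rims2 and Vamp3 had lower ones. DESeq2 called 4 of the 34 (Napa, Vamp2 and Rab3c higher, Slc30a8 lower), with 8.18% of all genes called, and limma-voom 0. Without overlap, 5 members were higher on KD (Rab3c, Napa, Vamp2, Ptprn2 and Nsf) and 4 lower (Slc30a8, Cadps, Vamp3 and Rims2), where 33.9% of all genes did not overlap, 15.7% higher and 18.2% lower. The lymphocyte covariate (0.097%) and no filter on low counts (1.02%) left the members' count at 0. With KD replicate 4 omitted, edgeR called 3 of the 34, all lower on KD: Slc30a8 (adjusted p = 0.0301), Syt4 (0.0218) and Scg2 (0.0427), with 9.84% of all genes called.

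**Figure D2:**
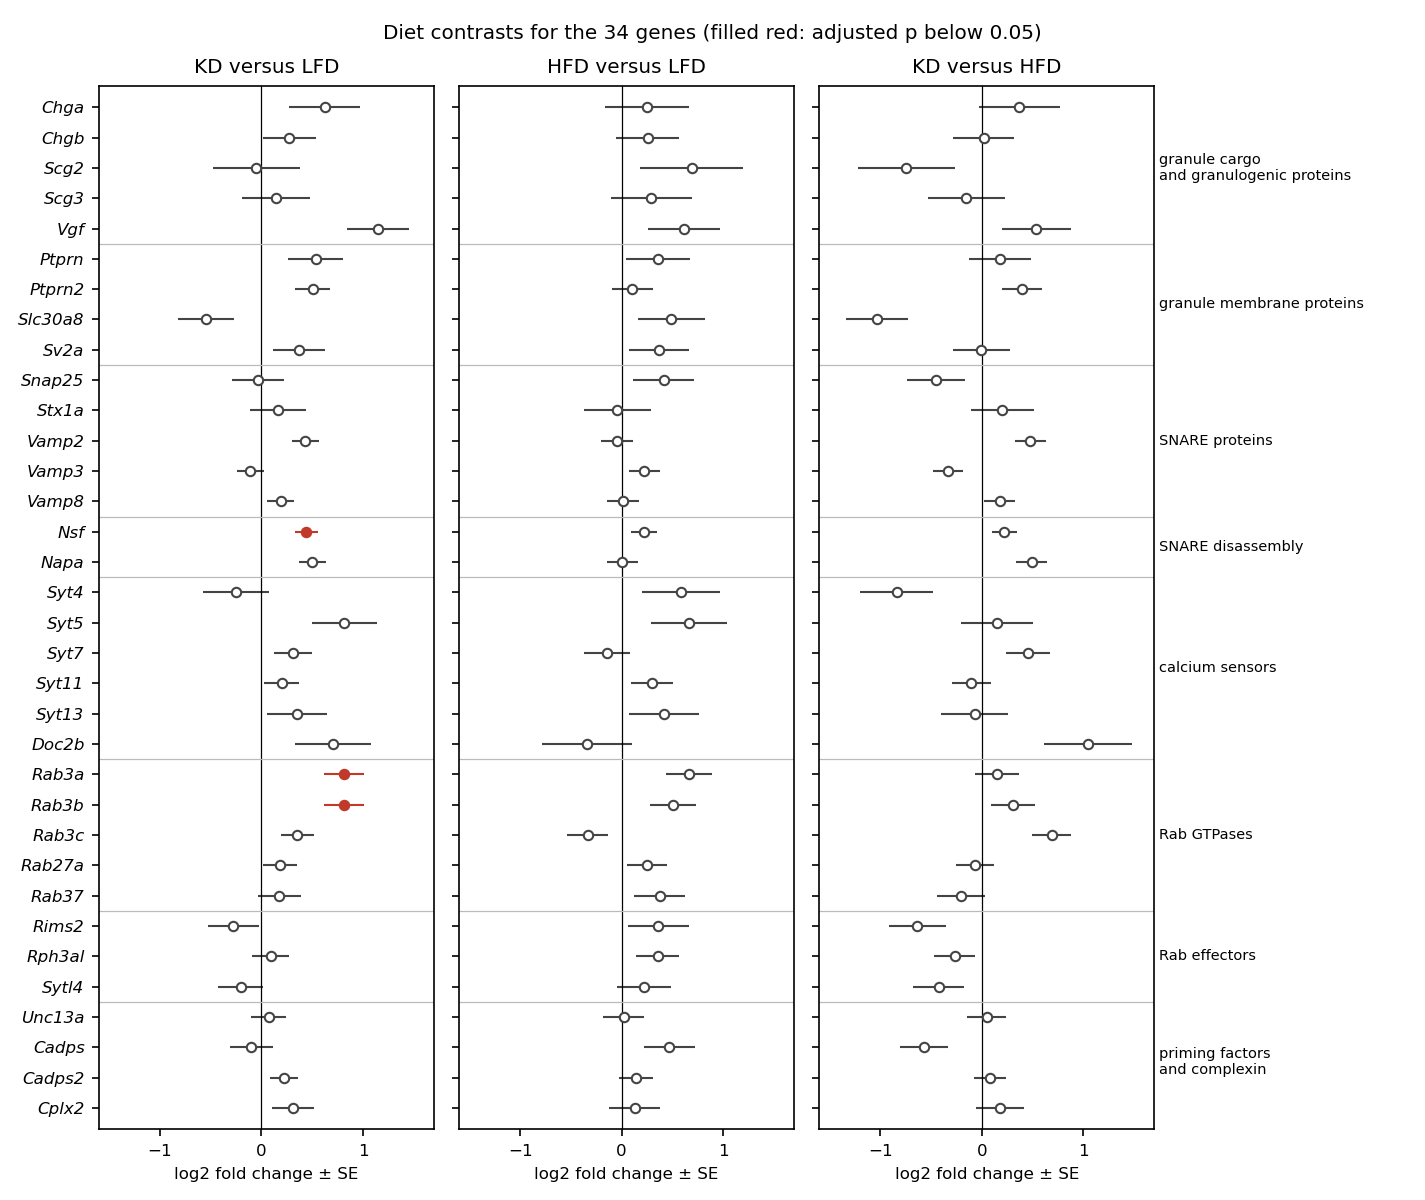
Log2 fold changes of the 34 genes in the 3 comparisons, with bars of 1 standard error from the edgeR fit. For KD against LFD the points of 26 genes lie above 0, and for KD against HFD 19 lie above 0 and Slc30a8 lies at -1.03.

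Among the Rab GTPases, Rab3 proteins sit on the granule and recruit effectors at the plasma membrane. Rab3a (ENSMUSG00000031840) stood at 19.01, 21.7 and 24.2 CPM in the LFD libraries, 28.1 and 40.6 in HFD and 31.0, 40.6, 31.6 and 49.3 in KD. Every KD and HFD library was above every LFD library. It rose on KD by 0.82 ± 0.20 (log2 fold change ± SE, edgeR adjusted p = 0.0425), from a mean of 21.7 ± 2.62 (SD, n = 3) to 38.1 ± 8.65 CPM (SD, n = 4), and was called in 5 of the 9 fits that left out 1 library. For HFD against LFD the log2 fold change of Rab3a was 0.66 ± 0.23 (edgeR adjusted p = 0.407). KD and HFD overlapped, with a log2 fold change of 0.15 ± 0.22.

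Rab3b (ENSMUSG00000003411), a less abundant relative, stood at 8.58, 8.24 and 11.9 CPM in LFD, 11.9 and 15.3 in HFD and 14.5, 19.96, 14.5 and 18.2 in KD. All KD libraries were above all LFD libraries, and HFD overlapped both. Rab3b rose on KD by 0.81 ± 0.20 (log2, edgeR adjusted p = 0.0438), and that call was kept in 1 of the 9 fits that left out a library, the fit without LFD replicate 3 (adjusted p = 0.0186). The third relative, Rab3c, stood at 13.6, 12.2 and 10.4 CPM in LFD, 10.5 and 8.59 in HFD and 14.2, 17.6, 14.0 and 15.7 in KD. Its KD values were above all others, with log2 fold changes of 0.35 ± 0.16 against LFD (edgeR adjusted p = 0.229) and 0.69 ± 0.19 against HFD (0.124).

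Rab27a (ENSMUSG00000032202), which docks insulin granules, had the highest level per kilobase of the 5 Rab genes. It stood at 96.3, 93.6 and 123 CPM in LFD, 113 and 135 in HFD and 97.02, 127, 106 and 145 in KD. Those ranges overlapped in all comparisons, with a KD against LFD log2 fold change of 0.19 ± 0.17 (edgeR adjusted p = 0.539). Rab37 likewise overlapped, with a log2 fold change of 0.17 ± 0.21. Within each library, where scaling cancels, the count ratio of Rab3a to Rab27a was 0.197, 0.232 and 0.197 in LFD, 0.248 and 0.302 in HFD and 0.298 to 0.341 in KD. The ratio of Rab3b to Rab37 was 0.205 to 0.277 in LFD, 0.222 and 0.276 in HFD and 0.316 to 0.384 in KD. In both ratios every KD library lay above every LFD library. The pairs for count ratios were chosen after their values had been seen and carry no test. Of 11 pairs computed, 7 did not overlap between KD and LFD and 4 did.

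On TMM-scaled sizes the SNARE-disassembly pair varied little among the LFD and among the KD libraries. Nsf (ENSMUSG00000034187) stood at 45.6, 45.3 and 45.8 CPM in LFD, 50.8 and 55.2 in HFD and 60.5, 62.8, 56.6 and 67.7 in KD, so on those sizes the 3 diets did not overlap at all. With sizes set by endocrine genes, described below, Nsf was 59.0, 49.8 and 39.8 CPM in LFD and 76.1, 57.5, 65.0 and 51.5 in KD. There Nsf and Napa each overlapped between KD and LFD. The following values are on TMM-scaled sizes. On KD Nsf rose by 0.44 ± 0.11 (log2, edgeR adjusted p = 0.0485), and leaving out any 1 of the 9 libraries put its adjusted p above the threshold, between 0.0587 and 0.161. For KD against HFD its log2 fold change was 0.22 ± 0.13 (edgeR adjusted p = 0.308), and for HFD against LFD 0.22 ± 0.13 (0.582). Napa (ENSMUSG00000006024), which encodes alpha-SNAP, stood at 90.7, 99.7 and 104 CPM in LFD, 84.7 and 113 in HFD and 129, 138, 142 and 147 in KD. Its KD values were above those of both other diets, which overlapped each other. The log2 fold change of Napa was 0.50 ± 0.13 against LFD (edgeR adjusted p = 0.0573, above the threshold) and 0.49 ± 0.15 against HFD (0.126).

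**Figure D3:**
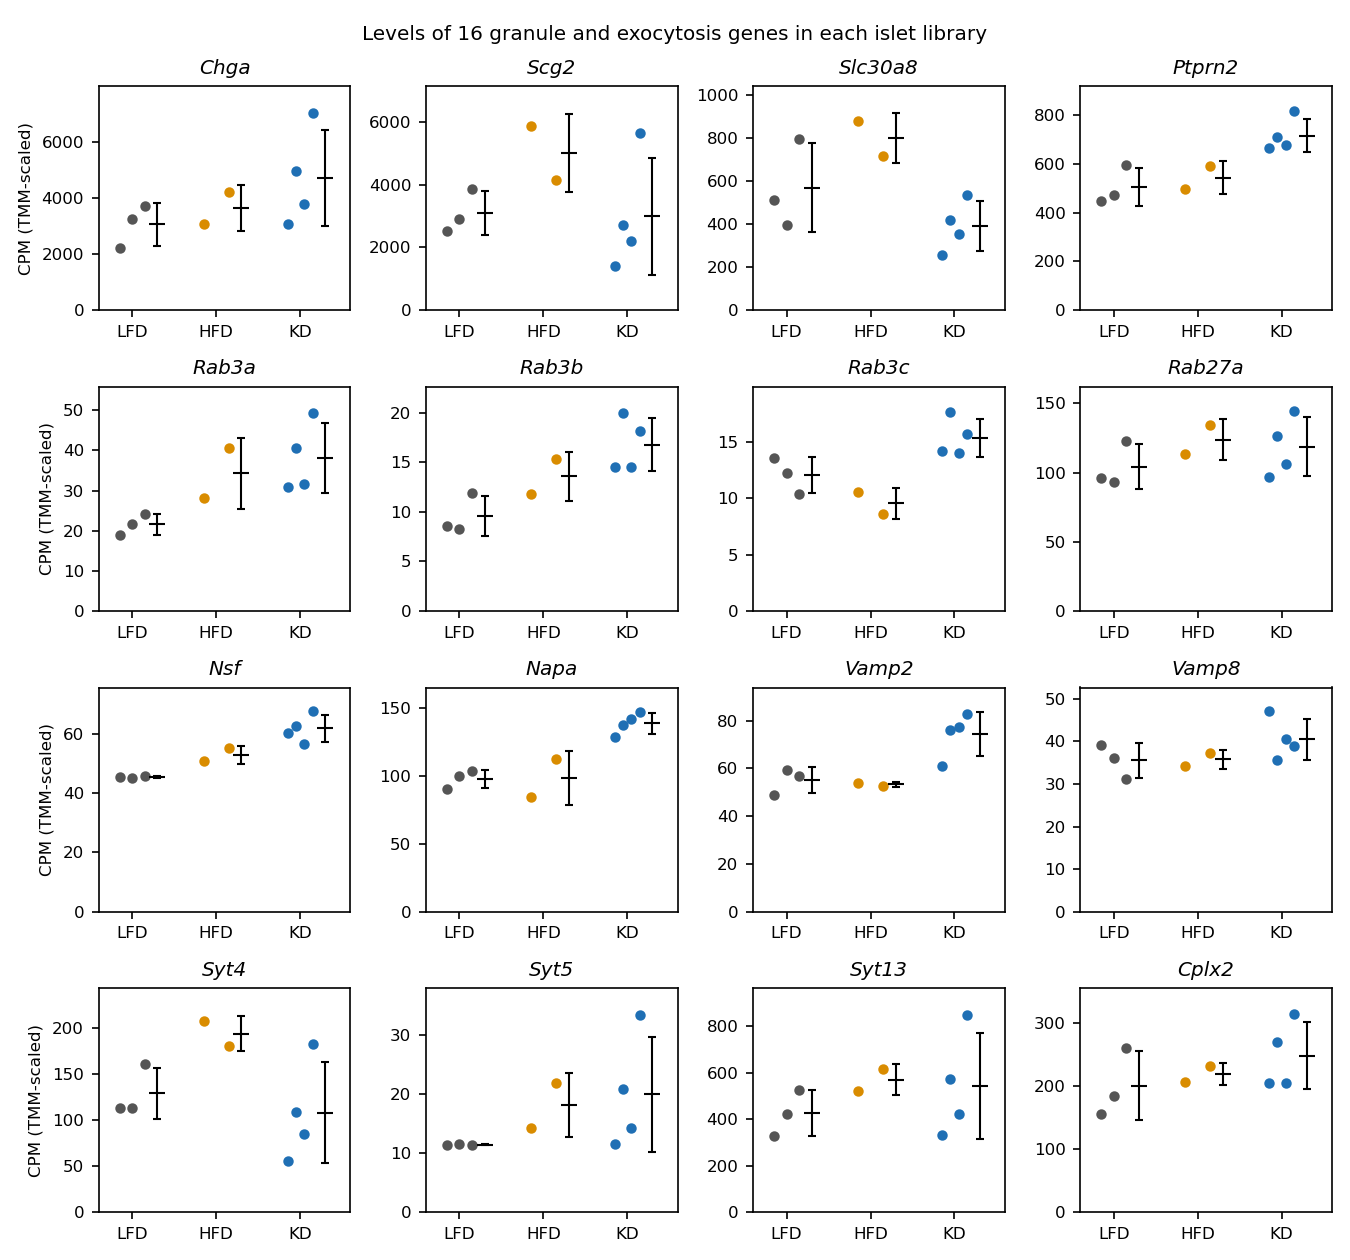
CPM on TMM-scaled library sizes for single genes, with 1 point per library and the mean ± SD of each diet (LFD n = 3, HFD n = 2, KD n = 4); each axis starts at 0. Rab3a, Rab3b, Nsf and Napa show all KD libraries above all LFD libraries, while Chga and Scg2 overlap between those diets and reach their highest KD value in replicate 4.

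Of the SNARE proteins themselves, which zip the granule and plasma membranes together, none of 5 was called in the main edgeR fit (all 9 libraries, no covariate). For KD against LFD, limma-voom and the fit with the acinar covariate called Vamp2. Vamp2, the main granule SNARE, stood at 49.0, 59.2 and 56.9 CPM in LFD, 54.1 and 52.6 in HFD and 61.0, 76.3, 77.4 and 82.6 in KD. Its KD values were above all others, with log2 fold changes of 0.43 ± 0.13 against LFD (edgeR adjusted p = 0.0902) and 0.48 ± 0.15 against HFD (0.128). Vamp8 (ENSMUSG00000050732), a SNARE of newcomer granules that acinar cells also use, had the highest level per kilobase of the 5 in the mean over the diets, though on KD Vamp2 was higher (19.5 against 17.5 CPM per kilobase). Vamp8 stood at 39.2, 36.2 and 31.1 CPM in LFD, 34.2 and 37.4 in HFD and 47.1, 35.6, 40.6 and 38.8 in KD, with overlap throughout and a KD against LFD log2 fold change of 0.19 ± 0.13 (edgeR adjusted p = 0.430). Vamp3, found on recycling vesicles, was 30.8 to 33.97 CPM in LFD, 35.1 and 40.6 in HFD and 26.1 to 34.2 in KD. The plasma membrane partners Snap25 and Stx1a had KD against LFD log2 fold changes of -0.04 ± 0.25 and 0.16 ± 0.27. In count ratios, Vamp2 to Vamp3 was 1.44, 1.82 and 1.85 in LFD, 1.54 and 1.30 in HFD and 2.34 to 2.78 in KD, with no overlap between KD and either other diet. Ratios to Snap25 overlapped between KD and LFD: Vamp2 to Snap25 was 0.537 to 1.06 in LFD and 0.870 to 1.195 in KD, and Nsf to Snap25 was 0.432 to 0.810 in LFD and 0.713 to 1.18 in KD.

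The granule cargo genes included the most abundant pair of the 34. Chga (ENSMUSG00000021194), chromogranin A, stood at 2212, 3233 and 3725 CPM in LFD, 3065 and 4218 in HFD and 3079, 4954, 3789 and 7015 in KD. The ranges overlapped, and the mean of 4709 ± 1720.2 (SD, n = 4) on KD against 3057 ± 772 (SD, n = 3) on LFD gave a log2 fold change of 0.62 ± 0.35 (edgeR adjusted p = 0.316). Of 20 alternative settings, 1 called Chga for KD against LFD, the fit with the acinar covariate (edgeR adjusted p = 0.00122). Scg2 (ENSMUSG00000050711), secretogranin II, stood at 2516, 2905 and 3874 CPM in LFD, 5877 and 4135 in HFD and 1394, 2709, 2203 and 5658 in KD. Both HFD libraries were above LFD, and KD replicates 1 to 3 were below HFD with replicate 4 among them. Log2 fold changes of Scg2 were 0.69 ± 0.51 for HFD against LFD (edgeR adjusted p = 0.656), -0.05 ± 0.43 for KD against LFD (0.960) and -0.74 ± 0.48 for KD against HFD (0.371).

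Because both genes come from the same libraries, their ratio needs no scaling. The count ratio of Chga to Scg2 was 0.879, 1.11 and 0.962 in LFD, 0.522 and 1.02 in HFD and 2.21, 1.83, 1.72 and 1.24 in KD. All 4 KD libraries were above all others, including replicate 4, whose levels stood apart. Within KD the ratio was lowest in replicate 4, with 21.5% acinar counts, and highest in replicate 1, with 64.2%, and the part of that share in it was not tested. Chga to Chgb was 16.4, 17.8 and 16.6 in LFD, 13.5 and 20.6 in HFD and 20.996, 21.3, 22.4 and 21.6 in KD.

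The other cargo genes overlapped between KD and LFD. Vgf, a granin-like neuropeptide precursor, had a low level of 3.00, 3.32 and 4.78 CPM in LFD, 6.75 and 4.61 in HFD and 4.59, 8.38, 9.26 and 10.6 in KD. Only the highest LFD and the lowest KD library crossed over, and its log2 fold change of 1.15 ± 0.31 was the largest of the 34 for KD against LFD (edgeR adjusted p = 0.0590, above the threshold). In 7 of 20 alternative settings Vgf was called. Chgb, the other chromogranin, and Scg3, which ties granins to the granule membrane, had log2 fold changes of 0.28 ± 0.26 and 0.14 ± 0.33.

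Of the 4 genes for granule membrane proteins, none was called in any comparison by the main edgeR fit. DESeq2 called Slc30a8 lower for KD against HFD and Ptprn2 higher for KD against LFD, with 8.18% and 9.56% of all genes called. For KD against LFD limma-voom also called Ptprn2 (10.1% of all genes called). The fit with the acinar covariate called Ptprn, Ptprn2 and Sv2a there (7.55%). Slc30a8 (ENSMUSG00000022315), the zinc transporter ZnT8 of insulin granules, stood at 514, 396 and 798 CPM in LFD, 881 and 718 in HFD and 255, 417, 355 and 535 in KD. Both HFD libraries were above all KD libraries, and LFD spanned both. The KD mean of 390 ± 117 CPM (SD, n = 4) against the HFD mean of 800 ± 115 (SD, n = 2) gave a log2 fold change of -1.03 ± 0.31 (edgeR adjusted p = 0.124). Against LFD it was -0.54 ± 0.28 (edgeR adjusted p = 0.270). Ptprn2 (ENSMUSG00000056553), the granule protein phogrin, stood at 449, 474 and 593 CPM in LFD, 495 and 590 in HFD and 663, 708, 676 and 816 in KD. Its KD values were above those of both diets, with log2 fold changes of 0.50 ± 0.17 against LFD (edgeR adjusted p = 0.116) and 0.40 ± 0.20 against HFD (0.246).

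The ratio of Ptprn2 to Slc30a8 counts was 0.872, 1.20 and 0.743 in LFD, 0.562 and 0.822 in HFD and 2.604, 1.698, 1.91 and 1.53 in KD, without overlap between KD and the others. By contrast the ratio of Ptprn2 to its close relative Ptprn overlapped between all diets. Within KD the ratio of Ptprn2 to Slc30a8 was highest in replicate 1, with 64.2% acinar counts, and lowest in replicate 4, with 21.5%. The part of that share in it was not tested. Ptprn and Sv2a, a vesicle membrane glycoprotein, had KD against LFD log2 fold changes of 0.54 ± 0.27 and 0.37 ± 0.25.

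**Figure D4:**
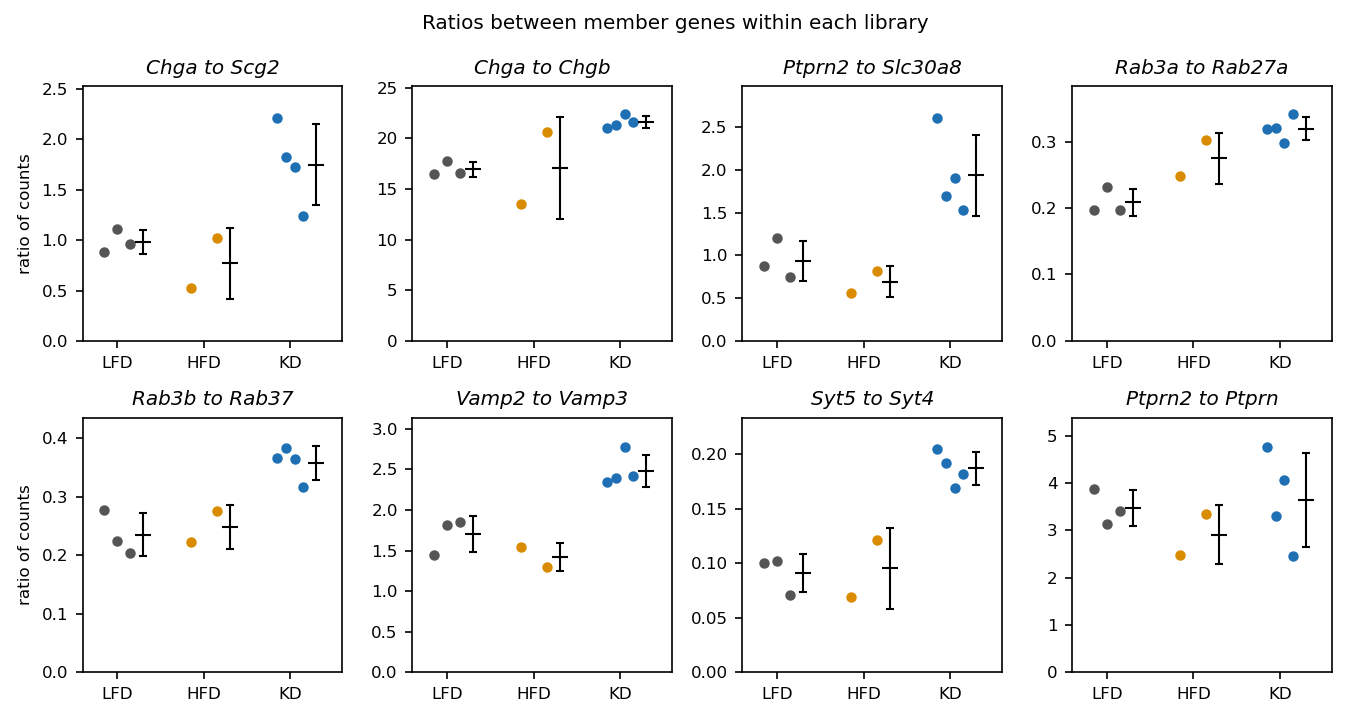
Ratios of the counts of 2 member genes within each library, with 1 point per library and the mean ± SD of each diet; each axis starts at 0. Of the 11 ratios computed, the 7 without overlap between KD and LFD and 1 with overlap (Ptprn2 to Ptprn) are drawn.

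The synaptotagmin genes and Doc2b differed in how far they spread within a diet. Syt13 (ENSMUSG00000027220), an atypical synaptotagmin of endocrine cells, had the highest level per kilobase among them. It stood at 329, 424 and 526 CPM in LFD, 523 and 618 in HFD and 332, 573, 421 and 850 in KD, with a KD against LFD log2 fold change of 0.35 ± 0.29 (edgeR adjusted p = 0.510). Syt5 (ENSMUSG00000004961), a granule calcium sensor, stood at 11.3, 11.6 and 11.4 CPM in LFD, 14.4 and 21.96 in HFD and 11.5, 20.8, 14.3 and 33.3 in KD. Its LFD values lay close together while KD spread widely, and only KD replicate 1 fell into the LFD range. Log2 fold changes of Syt5 were 0.82 ± 0.32 for KD against LFD (edgeR adjusted p = 0.168) and 0.67 ± 0.37 for HFD against LFD (0.573).

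Syt4 (ENSMUSG00000024261), a synaptotagmin that binds calcium poorly, was also higher in both HFD libraries than in LFD. It stood at 113, 114 and 161 CPM in LFD, 207 and 180 in HFD and 56.2, 109, 84.9 and 183 in KD. Only KD replicate 4 reached the HFD values. The log2 fold changes of Syt4 were 0.59 ± 0.39 for HFD against LFD (edgeR adjusted p = 0.619) and -0.84 ± 0.36 for KD against HFD (0.206). In count ratios, Syt5 to Syt4 was 0.101, 0.102 and 0.0711 in LFD, 0.0692 and 0.122 in HFD and 0.169 to 0.205 in KD. Syt7, the high-affinity sensor of beta and alpha cells, had a KD against LFD log2 fold change of 0.31 ± 0.19, Syt11 of 0.20 ± 0.17, and the sparse Doc2b of 0.70 ± 0.37.

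Rab effectors link granule Rabs to the docking machinery, and none of the 3 was called in the main edgeR fit. Sytl4 (ENSMUSG00000031255), granuphilin, which holds docked granules, stood at 138, 148 and 212 CPM in LFD, 184 and 204 in HFD and 103, 166, 117 and 190 in KD. Its log2 fold change for KD against LFD was -0.20 ± 0.22 (edgeR adjusted p = 0.623). For KD against HFD all 3 effectors were below 0: Rims2, an active-zone scaffold, at -0.64 ± 0.28 without overlap, Sytl4 at -0.43 ± 0.25 and Rph3al (Noc2) at -0.27 ± 0.20.

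Among the priming factors and the clamp protein complexin, Cplx2 (ENSMUSG00000025867) had the highest level per kilobase. It stood at 156, 184 and 261 CPM in LFD, 206 and 232 in HFD and 205, 269, 205 and 314 in KD, with a KD against LFD log2 fold change of 0.31 ± 0.21 (edgeR adjusted p = 0.407). Unc13a, the priming factor Munc13-1, was nearly level at 0.07 ± 0.17. The related priming factors Cadps and Cadps2 had KD against LFD log2 fold changes of -0.10 ± 0.21 and 0.22 ± 0.14, and for KD against HFD that of Cadps was -0.57 ± 0.23 without overlap (edgeR adjusted p = 0.184). The ratio of Cadps2 to Cadps counts overlapped between KD (0.157 to 0.285) and LFD (0.103 to 0.240).

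Much of the spread of these genes within a diet was shared. On TMM-scaled sizes, KD replicate 4 held the highest KD value for 27 of the 34 genes and KD replicate 1 the lowest for 25, and LFD replicate 3 held the highest LFD value for 26. These follow the acinar shares given above, which were lowest in KD replicate 4 and LFD replicate 3 and highest in KD replicate 1. When sizes were instead set by 20 genes that endocrine islet cells share (transcription factors, hormone-processing genes, channel subunits and other genes of endocrine and neural cells), KD replicate 4 was highest for 9 of the 34. None of the 20 is a member, but 5 (Scg5, Pcsk1n, Resp18, Pclo and Abcc8) are themselves on the list of further granule and exocytosis genes, so granule genes in part set this scale. The median coefficient of variation of the 34 within KD was then 13.8% in place of 22.2%, and within LFD 11.5% in place of 21.2%. This endocrine reference scaling moved the median log2 fold change of all genes tested to -0.12 for KD against LFD, -0.27 for HFD against LFD and 0.12 for KD against HFD.

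On the endocrine reference scale the 34 genes split by diet in another way. For KD against LFD, 9 were higher without overlap (Chga, Vgf, Ptprn, Ptprn2, Sv2a, Syt7, Rab3a, Rab3b and Cplx2), where 1.46% of all genes were, and 2 lower (Slc30a8 and Sytl4), where 9.78% were. For HFD against LFD 7 were higher (3.82% of all genes) and 4 lower (19.7%), and for KD against HFD 11 were higher (11%) and 6 lower (10.3%). Endocrine-scaled Chga was 2864, 3555 and 3236 CPM in LFD, 2941 and 3530 in HFD and 3877, 4540.5, 4348 and 5334 in KD. Endocrine-scaled Slc30a8 was 666, 435 and 694 CPM in LFD, 845 and 601 in HFD and 321, 382, 407 and 407 in KD. Chga thus lay above and Slc30a8 below both other diets in all 4 KD libraries, replicate 4 included. By edgeR on this scale 0 of the 34 were called for KD against LFD, with 5 at an unadjusted p below 0.05 and 1.98% of all genes called, and DESeq2 was not run on it. Rab3a then had a log2 fold change of 0.69 (edgeR adjusted p = 0.113), Rab3b of 0.72 (0.150) and Nsf of 0.34 (0.548). The median log2 fold change of the 34 was 0.13 for KD against LFD, 0.03 for HFD against LFD and 0.21 for KD against HFD, with 23, 19 and 23 of the 34 above 0. Of all genes tested, 39.4%, 24.6% and 58.6% were above 0 on this scale.

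**Figure D5:**
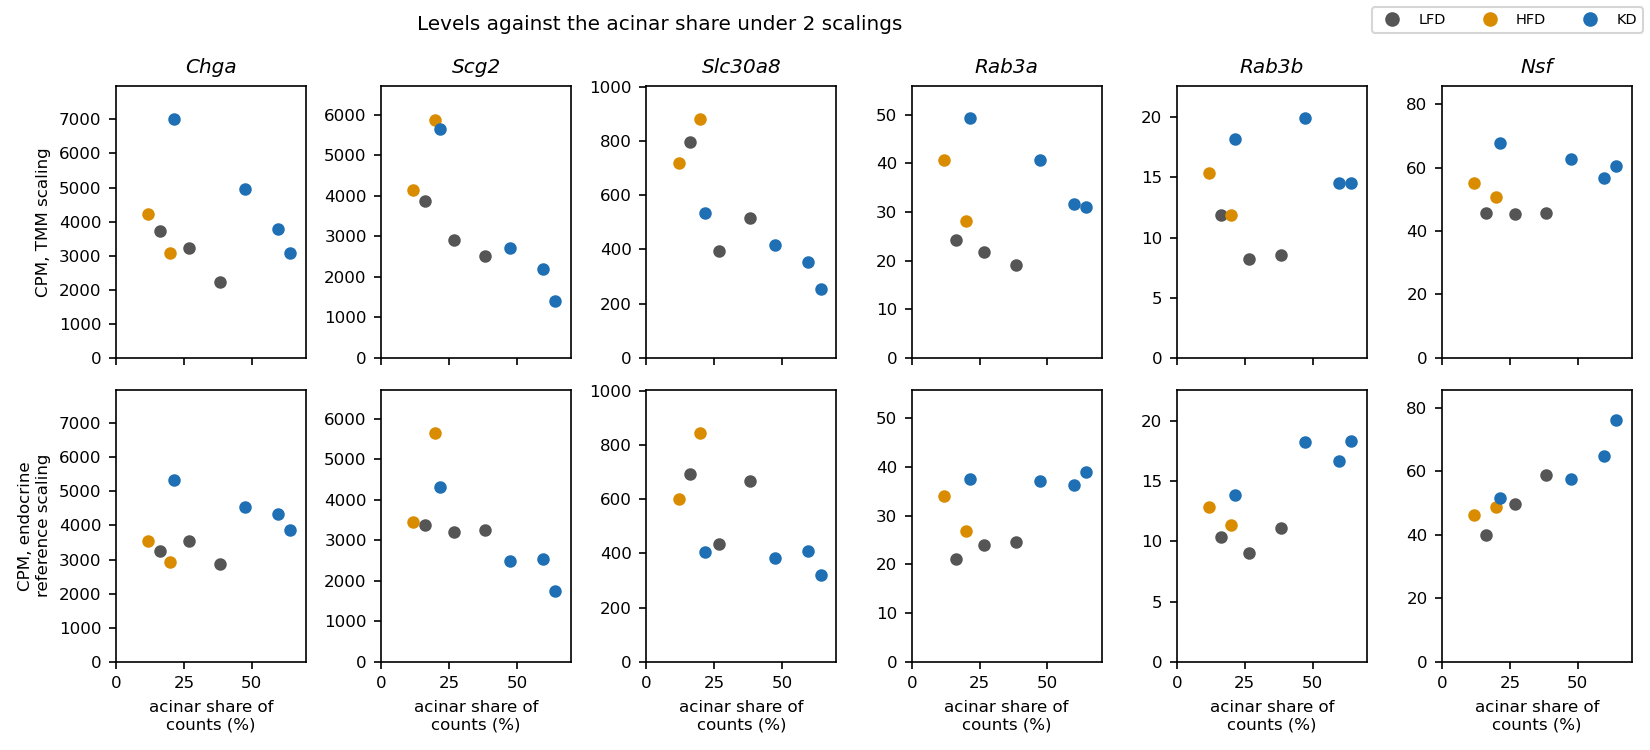
CPM of 6 member genes in each library (1 point per library, coloured by diet) against the acinar share of counts in percent, under TMM scaling (top row) and endocrine reference scaling (bottom row). Chga in KD runs from 3079 to 7015 CPM under TMM scaling and from 3877 to 5334 under endocrine reference scaling, where it no longer overlaps LFD.

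The wider machinery was read from a list of 93 further granule and exocytosis genes, of which 92 were matched and 87 tested. For KD against LFD 6 of the 87 passed the edgeR threshold, 5 higher and 1 lower, where 4.12% of all genes did, 0.981% higher and 3.14% lower. The median log2 fold change of the 87 was 0.05, where that of all genes was -0.02. Hid1, needed for granule formation at the Golgi, rose from 137 ± 30.6 (SD, n = 3) to 243 ± 29.8 CPM (SD, n = 4; log2 0.83 ± 0.17, edgeR adjusted p = 0.0273). Syn2, a vesicle-clustering synapsin, rose from 25.7 ± 3.41 to 40.9 ± 5.45 CPM (log2 0.67 ± 0.14, edgeR adjusted p = 0.0283), and Syt3, a calcium sensor, from 5.74 ± 1.28 to 12.6 ± 4.30 CPM (log2 1.13 ± 0.28, 0.0494). Rab3d, the Rab3 relative of exocrine granules (log2 0.97 ± 0.22, edgeR adjusted p = 0.0342), and the Rab27 effector Sytl1 (0.86 ± 0.19, 0.0313) also rose, and both belong to an 8-gene list of acinar zymogen-granule exocytosis. That list summed to 4213 to 11589 CPM in LFD, 2563 and 4635 in HFD and 6372 to 40727 in KD, and its part in these 2 results was not tested beyond the fit with the acinar covariate, in which Rab3d was 0.57 (adjusted p = 0.0184) and Sytl1 0.58 (0.0387). Syt3 was not called in that fit (0.71, adjusted p = 0.0749), by limma-voom (adjusted p = 0.0646) or by edgeR with DESeq2 size factors (adjusted p = 0.0530). Under endocrine reference scaling none of the 5 higher genes was called, with edgeR adjusted p-values from 0.272 (Syn2) to 0.362 (Sytl1). On that scale 1.98% of all genes were called.

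Unc13d, the priming factor of lymphocyte and platelet granules, fell by 2.30 on the log2 scale (SE 0.47, edgeR adjusted p = 0.0253). It stood at 4.72, 6.81 and 3.00 CPM in LFD, 1.501 and 2.10 in HFD and 0.622, 0.802, 2.14 and 0.538 in KD, and the lymphocyte markers given above were lower in KD too. With the lymphocyte score as a covariate the log2 fold change of Unc13d was -1.49 with an SE of 1.30 (edgeR adjusted p = 0.642). In that fit 0% of all genes were called, so a lost call there says little about any 1 gene. The part of lymphocytes in the fall of Unc13d was not tested beyond that fit. Besides Syt3, the largest log2 fold changes at a mean of at least 5 CPM were those of Sv2c (1.19 ± 0.41, edgeR adjusted p = 0.120) and Rab26 (1.17 ± 0.55, 0.242). Neither was called in the main edgeR fit, while DESeq2 called Sv2c. Leaving out LFD replicate 1 or KD replicate 2 took the count of 6 to 0. It was 1 when LFD replicate 2, KD replicate 1 or KD replicate 3 was omitted, 3 when LFD replicate 3 was, 4 when either HFD library was, and 11 when KD replicate 4 was. Over these 9 fits, Hid1, Syn2 and Unc13d were each called in 5, Sytl1 in 3, and Rab3d and Syt3 each in 1.

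For HFD against LFD 0 of these 87 genes were called by edgeR, DESeq2 or limma-voom, where 0%, 1.44% and 0.0539% of all genes were. By edgeR 5 had an unadjusted p below 0.05, where 9.99% of all genes did. The largest log2 fold changes at that minimum were in Synpr (1.002 ± 0.40, edgeR adjusted p = 0.461), Rab27b (-0.75 ± 0.37, 0.532) and Sytl2 (-0.71 ± 0.30, 0.479). For KD against HFD edgeR and limma-voom called 0 (0% of all genes in each), and DESeq2 called 7 (8.18%). By edgeR 17 had an unadjusted p below 0.05, where 22.7% of all genes did. Rab26 (1.80 ± 0.67, edgeR adjusted p = 0.161), Syt3 (1.43 ± 0.33, 0.124) and Rab3d (1.19 ± 0.26, 0.124) had the largest values there.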

How the data were processed

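Islet RNA was sequenced in 9 libraries from poly(A)-selected, strand-specific preparations, per the labels' protocols. The authors deposited raw counts per gene, with 1 column per library. The submitters' processing notes name cutadapt 1.16, STAR 2.7.9a, featureCounts 1.6.3 and DESeq2 1.40.2 and the builds GRCm39 and mm39, with no roles. The annotation release and strand setting are not given in the sources used here. Symbols matched 51948 of 56941 identifiers, and exon lengths came from GENCODE on GRCm38.

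Counts were filtered with filterByExpr by diet, scaled by TMM and fitted with a mean per diet over all 9 libraries (edgeR 4.0.16 robust quasi-likelihood, R 4.3.3), because groups of 2 to 4 are too small for separate estimates of spread. Tests were two-sided with Benjamini-Hochberg adjustment over 18548 genes and a threshold of 0.05. A standard error is the size of the log2 fold change divided by the root of its F value. The procedure was tested on simulated data. Of 2-fold changes it called 36.1% for KD against LFD, 18.3% for HFD against LFD and 20.4% for KD against HFD. Of 4-fold changes it called 73.6%, 63.6% and 69.0%, and there were 7, 7 and 5 false calls. A gene that was not called may thus still differ between diets. No libraries of a diet agreed within sampling noise.

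The members and lists were chosen with earlier results of these data known. Described in full are members past the threshold, those without overlap between KD or HFD and LFD at a log2 fold change of at least 0.5 in size, and the highest per kilobase in each role. Of the further genes, those past the threshold and the 3 largest changes per comparison at a mean of at least 5 CPM are given. Alternatives were DESeq2 1.42.0, limma-voom (limma 3.58.1) with sample weights, other scalings, filters and covariates, a fit of only the diets compared, a replicate block and the omission of each library.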

Additional observations from a re-analysis of the deposited data

Results flagged for a closer look

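In the 4 KD libraries, Stx1a, the plasma membrane SNARE syntaxin 1A, stood at 5.99, 5.03, 5.17 and 5.15 CPM. Its counts were low, between 58 and 131 over all 9 libraries, so counting noise is part of such gaps. KD replicate 1 lay apart from the rest: its gap to the nearest library was 0.863 of the KD range, above Dixon's 95% critical value for 4 samples. It was the only 1 of 37 such checks, over the 34 genes, their summed level, the acinar share and the ratio of Chga to Scg2, to exceed that value, and chance exceeds it in about 1 group in 20. KD replicate 1 also had the highest acinar share of counts, 64.2%. The part of the acinar share in this value was not tested.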

How the results depend on the processing

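For KD against LFD, the count of 3 members called became 6 with DESeq2, 7 with limma-voom, 15 with the acinar covariate, and 0 with a minimum of 5 CPM in 3 libraries, with endocrine reference scaling, with the lymphocyte covariate (added after seeing the data) and in a fit of only the 2 diets compared. Unadjusted p-values below 0.05 in those 4 edgeR fits numbered 8, 5, 3 and 8. Leaving out 1 library gave 0 to 3. The 6 further exocytosis genes called became 12, 10, 10, 2, 1, 0 and 3 in the same order of settings, and 0 to 11 when 1 library was left out. Over all genes, 9.56%, 10.1%, 7.55%, 3.31%, 1.98%, 0% and 3.12% were called in those settings, and 0.822% to 7.4% with 1 library left out. For HFD against LFD both counts were 0 in all alternatives. For KD against HFD the members called, 0, became 4 with DESeq2 and 0 to 3 with 1 library left out. The further genes, 0, became 7 with DESeq2, 5 with no filter on low counts and 0 to 13 with 1 library left out. Of all genes, 8.18% were called with DESeq2, 1.02% with no filter and 0% to 9.84% with 1 library left out.

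Labels number the replicates alike across diets, but same-numbered libraries had correlations of their deviations from the diet means between -0.0164 and 0.222, which does not pair them. With the replicate block, members called were 4 for KD against LFD, 0 for HFD against LFD and 6 for KD against HFD, and further genes 14, 0 and 18, where 10.8%, 2.13% and 12.5% of all genes were called. No member's called change reversed in any alternative. For KD against LFD, 17 of the 34 log2 fold changes kept their sign in all alternatives, for HFD against LFD 7 and for KD against HFD 14. For KD against LFD, Rab3a was called in 12 of 20 alternatives, Rab3b in 8 and Nsf in 5. Vgf and Napa, not called in the main edgeR fit, were called in 7 and 4. Depth limits mainly Doc2b, Vgf and Stx1a, whose lowest counts were 37, 49 and 58.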
